A study of Mus musculus with 6 samples.

Results

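The dystrophin-glycoprotein complex was followed through 8 genes, Dmd, Utrn, Dag1, Sgca, Sgcb, Sgcd, Sntb1 and Dtna, which were taken by symbol from the 20950 entries of a deposited mouse expression table. All 8 were found once. Of these, 7 reached a mean of 1 FPKM (fragments divided by transcript length and by the mapped fragments of the library) over the 6 libraries and were tested with 10731 genes in all, and Dmd, at a mean of 0.566 FPKM, was described without a test.

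The complex spans the membrane of the muscle fibre and joins the actin cytoskeleton inside it to laminin outside it. Dystrophin binds actin at one end and dystroglycan at the other, dystroglycan binds laminin through its sugar chains, the sarcoglycans form a unit beside dystroglycan, and the syntrophins and dystrobrevins sit on the inner face and hold signalling proteins. In muscle the loss of dystrophin or of a sarcoglycan leaves the membrane fragile and causes muscular dystrophy, and utrophin can stand in for dystrophin.

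C2C12 cells, myoblasts of a mouse line grown in DMEM, were sequenced in 5 conditions to ask how exosomes of fetal bovine serum act on myogenic differentiation. Growing cells were kept in 10% FBS, and differentiating cells in 2% HS (horse serum) or in 0.2% FBS, each with or without exosomes isolated from FBS and added in the amount held by 10% FBS. There was 1 library of each condition except 0.2% FBS + exosome, which had 2, replicates 1 and 2. The sources used here do not say whether these came from separate cultures. Unless stated otherwise, p-values therefore measure only the spread between these 2 libraries, and the controls have no replicate. The p-values of the fit with 1 exosome effect for both media also count as spread the difference of that effect between media. All 6 come from 1 cell line with no genetic change, and exosomes of the 10% FBS itself were present in the growth medium.

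The depth, estimated from the spacing of low values, lay between 33800000 and 39400000 reads per library. Markers of the muscle lineage were present in every library, with Myod1, a myogenic transcription factor, between 83.7 and 110.5 FPKM. The highest value of 10 markers of leukocytes, endothelium, epithelium and adipocytes in any library was 2.00 FPKM. The 10% FBS library already held 512 FPKM of Myog, the factor that drives the onset of differentiation, and 738 FPKM of Myh3, embryonic myosin heavy chain, so it was not free of differentiation transcripts. Changes are differences of log2(FPKM + 1), which understates the change of a gene with a low level, and the threshold, a change above 1 or below −1, takes its size from the study and was applied here on that scale.

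RefSeq promoter windows (build GRCm38.p6) were found for 6 of the 8 members. The RefSeq starts of Utrn and Sgcd lie inside the gene spans of the other annotation used, GENCODE vM21, and are not described further. Windows of 300 bases, 250 before the start and 50 after it, were searched on both strands for the E-box CANNTG, its muscle form CAGCTG (which is also a CANNTG match), the MCAT motif CATTCC, the GC box GGGCGG, the CArG box bound by serum response factor and the MEF2 site. The 250 bases before 4 starts are shown 5′ to 3′ on the strand of the gene, because these genes stand out in what follows. Dmd had the lowest level, and is shown from its upstream start, the 5′ end of the annotated gene, at chrX:82948620-82948869 (plus strand) and from an internal start 2099 kb further on at chrX:85048045-85048294. Sgca, the 1 tested member called as changed with exosomes in 0.2% FBS, is shown at chr11:94976328-94976577 (minus strand). Dag1 had the highest level, and is shown from the upstream of its 2 RefSeq starts, at chr9:108263959-108264208 (minus strand). Capitals mark every match to these motifs.
Dmd, upstream start: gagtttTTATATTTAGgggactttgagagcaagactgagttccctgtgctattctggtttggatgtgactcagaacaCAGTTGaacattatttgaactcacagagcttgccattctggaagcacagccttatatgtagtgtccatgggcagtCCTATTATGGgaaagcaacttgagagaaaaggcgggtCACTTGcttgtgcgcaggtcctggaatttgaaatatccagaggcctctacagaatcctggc
Dmd, internal start: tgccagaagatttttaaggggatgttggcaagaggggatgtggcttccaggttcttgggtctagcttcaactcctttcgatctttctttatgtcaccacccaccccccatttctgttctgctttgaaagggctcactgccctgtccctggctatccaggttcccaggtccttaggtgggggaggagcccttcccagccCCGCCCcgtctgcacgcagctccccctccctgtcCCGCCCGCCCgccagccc
Sgca: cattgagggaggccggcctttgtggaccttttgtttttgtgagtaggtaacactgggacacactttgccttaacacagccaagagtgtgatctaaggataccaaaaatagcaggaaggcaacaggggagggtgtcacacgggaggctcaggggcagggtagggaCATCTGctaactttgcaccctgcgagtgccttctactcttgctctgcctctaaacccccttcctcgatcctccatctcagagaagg
Dag1: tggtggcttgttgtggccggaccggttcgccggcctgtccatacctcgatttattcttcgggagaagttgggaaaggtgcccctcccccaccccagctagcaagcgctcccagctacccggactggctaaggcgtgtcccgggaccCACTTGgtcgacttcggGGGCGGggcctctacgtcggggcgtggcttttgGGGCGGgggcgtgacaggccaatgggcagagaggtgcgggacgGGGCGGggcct

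The transcript of 14910 bases, the longest of Dmd, begins 33 bases after the upstream start, and a coding transcript of 4438 bases 118 bases after the internal one. The upstream start of Dmd had a MEF2 site 244 bases before the start, E-boxes at 173 and 61 bases and a CArG box at 98 bases. The internal start had none of these and held 3 GC boxes at 52, 18 and 14 bases, of which the last 2 overlap. Sgca had an E-box 86 bases before the start and no GC box, and Dag1 had an E-box at 104 bases and GC boxes at 87, 54 and 11 bases. The other start of Dag1 lies 143 bases further on, so that most of its window is shared, and the same E-box and 3 GC boxes stand there at 247, 230, 197 and 154 bases, with another GC box 3 bases after the start. A further E-box lay 39 bases after the upstream start of Dmd and another 26 bases after that of Sgca, outside the bases shown. Of 32851 RefSeq promoters of the same length, 72.3% held an E-box, 35.7% a GC box, 16.3% the muscle E-box, 14.7% MCAT, 3.19% a MEF2 site and 1.63% a CArG box, so an E-box is common and the 2 rarest motifs met at the upstream start of Dmd. A match describes letters only, and a window without one says nothing of a factor.

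Dmd encodes dystrophin, the rod that links actin to dystroglycan, and spans 2257 kb (chrX:82948870-85206141, mm10). It was the lowest of the members in every library, at 0.388 FPKM in 10% FBS, 0.855 in 2% HS, 0.847 in 2% HS + exosome, 0.717 in 0.2% FBS, and 0.390 and 0.197 in replicates 1 and 2 of 0.2% FBS + exosome. The 3 high libraries were the differentiating ones other than 0.2% FBS + exosome. Were all of it the annotated transcript of 14910 bases, these levels would stand for an estimated 225, 488, 423, 389, 202 and 98 reads in the same order. The FPKM of replicate 2 was 0.505 times that of replicate 1, the widest gap between the replicates among the members. The value is given per gene, and full-length and short isoforms cannot be told apart in it. On the log2(FPKM + 1) scale the change with exosomes in 0.2% FBS was −0.41 (SD 0.15, n = 2). With a pseudocount of 0.1, closer to the level of the gene, it was −1.10 on the mean of both replicates, past the threshold. Replicate 2 carried more of that fall than replicate 1. Fitted with no filter on low values, limma gave Dmd an adjusted p of 0.302 (Benjamini-Hochberg over all entries above 0).

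Utrn encodes utrophin, the paralog of dystrophin that muscle uses before dystrophin and at nerve contacts (chr10:12382188-12869365, minus strand). It was at 20.2 FPKM in 10% FBS, 20.5 in 2% HS, 20.6 in 2% HS + exosome and 22.3 in 0.2% FBS, and at 17.0 and 14.2 in replicates 1 and 2 of 0.2% FBS + exosome. The libraries of 0.2% FBS + exosome were the 2 lowest. The change in 0.2% FBS was −0.49 (limma SE 0.17), which did not pass (limma adjusted p = 0.0911). The ratio of Dmd to Utrn FPKM within a library was 0.0193 in 10% FBS, 0.0417 in 2% HS, 0.0410 in 2% HS + exosome, 0.0322 in 0.2% FBS, and 0.0230 and 0.0139 with exosomes in 0.2% FBS, so utrophin transcripts stood far above those of dystrophin in all 6. On the log2(FPKM + 1) scale this ratio moved by 0.08, upwards, since the pseudocount exceeds the Dmd level; with a pseudocount of 0.1 it moved by −0.58, the direction of the plain FPKM ratios.

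Dag1 encodes both chains of dystroglycan, the laminin receptor at the centre of the complex (chr9:108204634-108263958, minus strand). It was the highest of the members in every library, at 146 FPKM in 10% FBS, 198 in 2% HS, 182 in 2% HS + exosome, 161 in 0.2% FBS and 173 and 148 in replicates 1 and 2 of 0.2% FBS + exosome. Replicates 1 and 2 lay on either side of the 0.2% FBS library, with a change of 0.10 in one and −0.12 in the other (mean −0.01, limma SE 0.23, adjusted p = 0.985). With the libraries scaled to the same 75th percentile, the changes were 0.004 and −0.29 (mean −0.14, limma adjusted p = 0.693). Dag1 took between 51.4% and 61.2% of the summed FPKM of the members. That sum was 259 FPKM in 10% FBS, 354 in 2% HS, 353 in 2% HS + exosome, 311 in 0.2% FBS and 283 and 255 in 0.2% FBS + exosome. Without Dag1 it was 113, 156, 171, 150, 110 and 107 FPKM in the same order, and the libraries of 0.2% FBS + exosome were then the 2 lowest, next to 10% FBS.

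**Figure D1:**
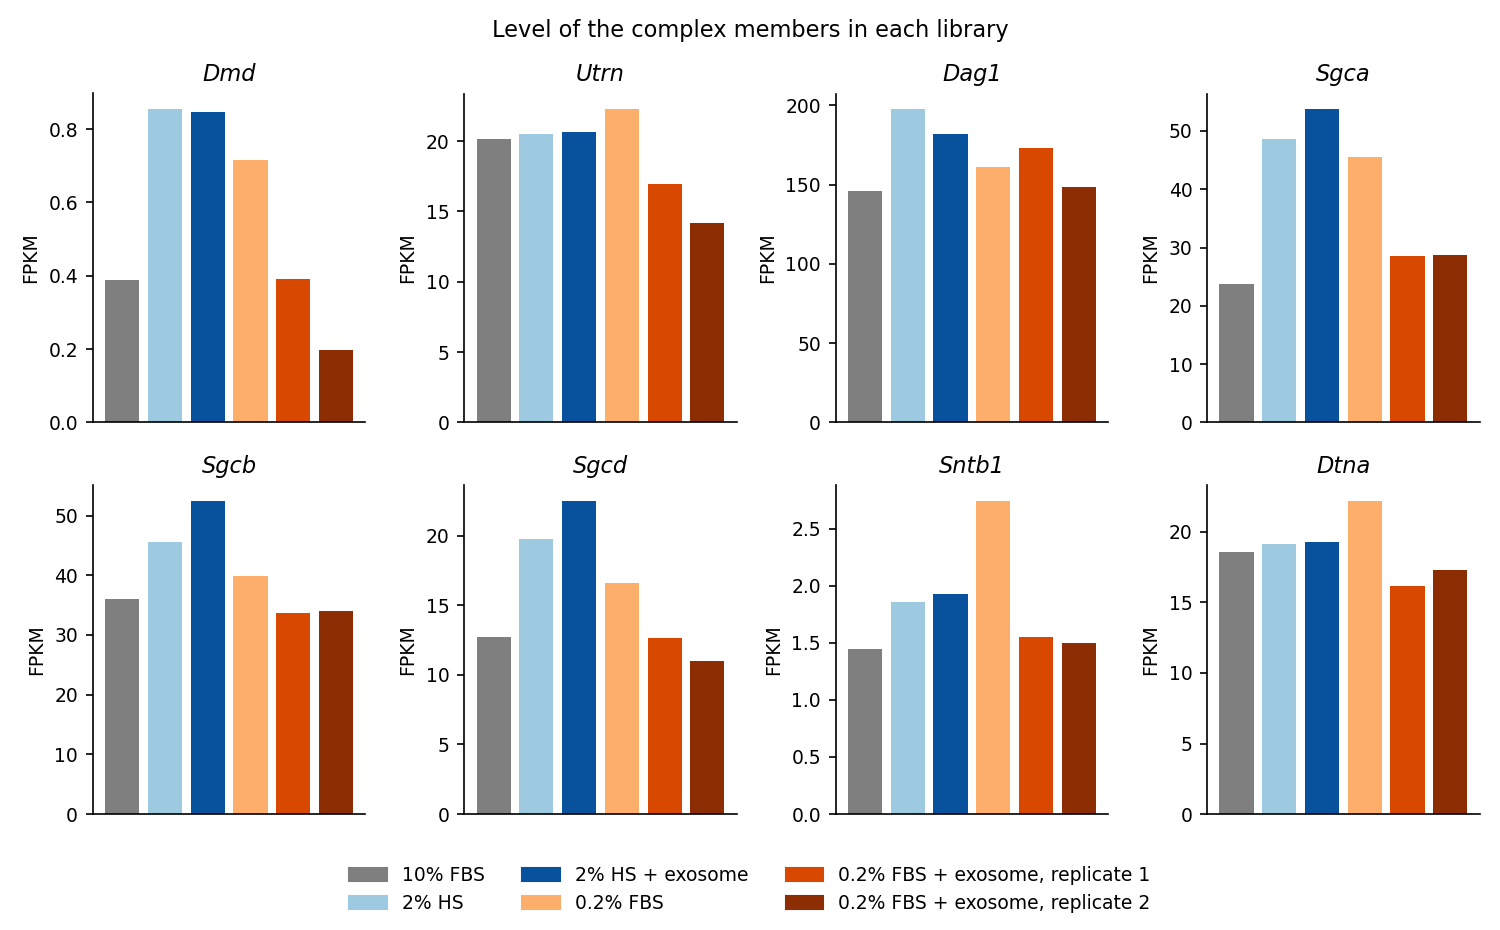
FPKM of each member (vertical axes from 0, a scale of its own for each gene) in the 6 libraries, 1 bar per library with no error bar. Sgca stood between 45.5 and 53.7 FPKM in the 3 differentiating libraries other than 0.2% FBS + exosome and between 23.7 and 28.7 FPKM in the others, while Dag1 varied 1.36-fold between its lowest and highest library.

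Of the sarcoglycans, which brace dystroglycan in the membrane, Sgca (alpha-sarcoglycan, found in striated muscle, chr11:94962791-94976327, minus strand) separated the libraries most clearly. It was at 23.7 FPKM in 10% FBS, 48.6 in 2% HS, 53.7 in 2% HS + exosome, 45.5 in 0.2% FBS, and 28.5 and 28.7 in replicates 1 and 2 of 0.2% FBS + exosome. Both exosome libraries of 0.2% FBS lay below every other differentiating library and above 10% FBS. The change with exosomes in 0.2% FBS was −0.65 in each replicate (limma SE 0.16, adjusted p = 0.0375), a fall to 0.629 of the FPKM of the control. It was the 1 of the 7 tested members that passed, and the call was lost with values below 1 FPKM raised to 1 (adjusted p = 0.134), with no filter (0.243) and without limma's trend (0.053), the first 2 of which left no gene of the table called. In 2% HS the change was 0.14, from 1 library against 1.

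Sgcb (beta-sarcoglycan, chr5:73632749-73647790, minus strand) forms the core of the unit with Sgcd. It was at 36.0 FPKM in 10% FBS, 45.6 in 2% HS, 52.5 in 2% HS + exosome and 39.9 in 0.2% FBS, and at 33.6 and 34.1 in 0.2% FBS + exosome. The exosome libraries of 0.2% FBS were the lowest of the 6, but the change of −0.23 (limma SE 0.16) did not pass (adjusted p = 0.380). With the libraries scaled to the same 75th percentile it was −0.36 and did not pass either (limma adjusted p = 0.144). Sgcd (delta-sarcoglycan, chr11:46896253-47988969, minus strand) was at 12.7, 19.7, 22.5 and 16.6 FPKM in 10% FBS, 2% HS, 2% HS + exosome and 0.2% FBS, and at 12.6 and 11 in 0.2% FBS + exosome. Its change of −0.46 (SE 0.17) did not pass limma with Benjamini-Hochberg adjustment either (adjusted p = 0.1). All 3 sarcoglycan members were highest in 2% HS + exosome, with changes of 0.14 to 0.20 from 2% HS that have no replicate.

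On the inner face, Sntb1 (beta-1-syntrophin, an adaptor for signalling proteins, chr15:55636388-55906949, minus strand) was low, at 1.44 FPKM in 10% FBS, 1.86 in 2% HS, 1.92 in 2% HS + exosome, 2.74 in 0.2% FBS, and 1.55 and 1.50 in 0.2% FBS + exosome. Here the 0.2% FBS control stood apart from the other 5 libraries, so the change of −0.57 (limma SE 0.18, adjusted p = 0.0745) rests on that library. Dtna (alpha-dystrobrevin, which binds dystrophin and the syntrophins, chr18:23415135-23659715, plus strand) was at 18.6 FPKM in 10% FBS, 19.1 in 2% HS, 19.3 in 2% HS + exosome and 22.2 in 0.2% FBS, and at 16.2 and 17.3 in 0.2% FBS + exosome. As for Sntb1, 0.2% FBS was the highest library, and the change of −0.39 (SE 0.16) did not pass limma with Benjamini-Hochberg adjustment (adjusted p = 0.135). An opposite-strand gene, Gm47898, shares 90 of 16930 exon bases with Dtna and is not a row of the table, and the strand setting of the FPKM calculation is not given in the sources used here.

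**Figure D2:**
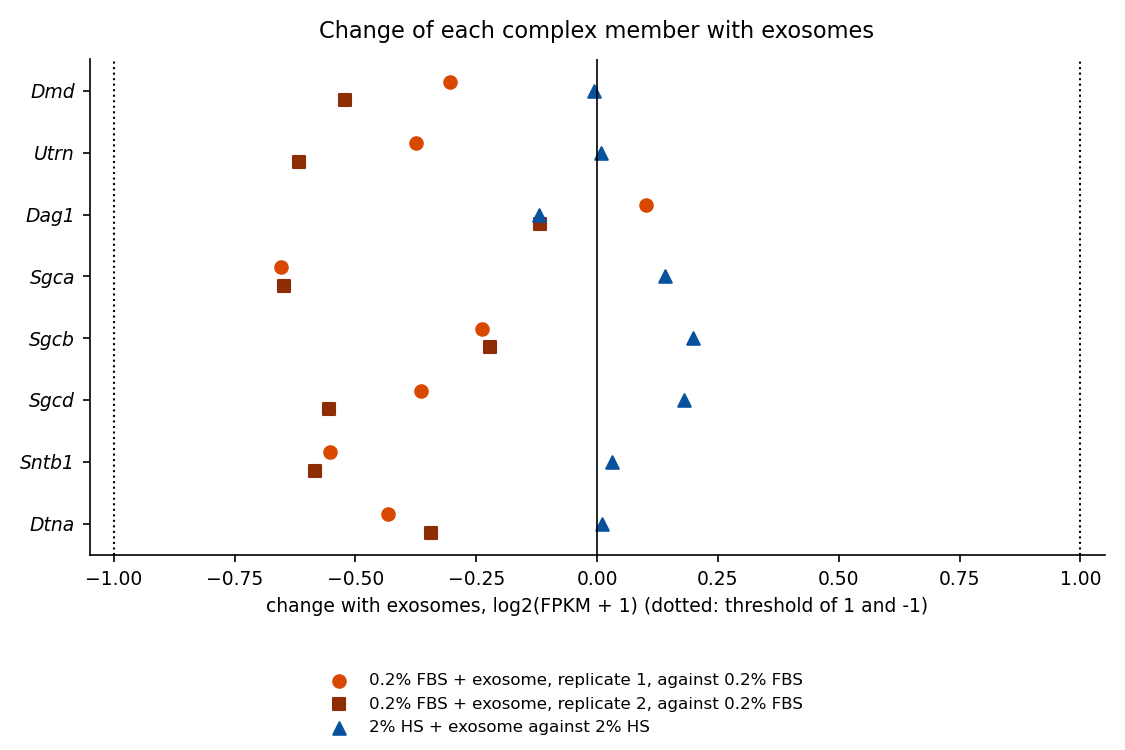
Change of each member with exosomes as a difference of log2(FPKM + 1), in replicates 1 and 2 of 0.2% FBS + exosome against the same 0.2% FBS library and in 2% HS + exosome against 2% HS, with dotted lines at the threshold of 1 and −1. In 0.2% FBS all members but Dag1 lie to the left of 0 in both replicates, Sgca at −0.65 in each, and in 2% HS all lie between −0.12 and 0.20.

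With exosomes in 0.2% FBS, none of the 7 tested members passed the threshold on the mean of both replicates (Dmd, not tested, is described above). Over all genes tested, 2.25% lay below −1 and 1.8% above 1. By limma with Benjamini-Hochberg adjustment 1 of 7 members was lower, where 4.32% of all genes were, and 0 were higher, where 8.2% were. Before adjustment p was under 0.05 for 5 members, all lower, where 31.5% of all genes had such a p and 8.98% were lower with it. The median change of the 7 was −0.46, beside 0.14 over all genes, and 6 of the 7 (85.7%) were lower in each exosome library, as were 27.5% of all genes. Both replicates were compared with the same control library. Scaling the libraries to the same 75th percentile moved the median of all genes by −0.12, to 0.02, and that of the members to −0.58, with 6 of the 7 again lower in each library and 39.5% of all genes. The genes called by limma were then 731 lower and 585 higher, in place of 464 and 880, and of the members Sgca alone was again called (adjusted p = 0.0188). In bulk RNA, fewer cells that carry a transcript and less of it in each cell cannot be told apart.

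In 2% HS the members stayed close to the control. None of the 7 tested passed the threshold, beside 0.298% of all genes below −1 and 0.354% above 1. The changes ran from −0.12 for Dag1 to 0.20 for Sgcb, with a median of 0.03 and −0.04 over all genes. The contrast between the exosome effects of both media (0.2% FBS less 2% HS) was tested in the same limma fit. On the log2(FPKM + 1) scale it was largest for Sgca, at −0.79 (SE 0.25, adjusted p = 0.149), and Sgcd, at −0.64 (SE 0.25, adjusted p = 0.222). With a pseudocount of 0.1 it was largest for Sntb1, at −0.85 (Sgca −0.81), as it was with values below 1 FPKM raised to 1, at −0.90 (Sgca −0.81). No member passed, whereas 0.867% of all genes were called as lower and 0.298% as higher, and 2 members had an unadjusted p under 0.05, as did 19.5% of all genes. After scaling, 6 members had such a p, as did 17.8% of all genes, and none passed (limma, lowest adjusted p = 0.0791). A fit with 1 exosome effect for both media called 0% of genes as lower and 0% as higher (limma, 709 genes at an unadjusted p under 0.05), no member among them, before or after adjustment, and the same held under every alternative run.

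Of the members, Dmd and Sgca stood furthest above growing cells in 2% HS, and Sgca and Sntb1 in 0.2% FBS, both without exosomes. In 2% HS against 10% FBS, Sgca passed the threshold at 1.00, only just above it, and was the 1 member of 7 to do so, as did 1.79% of all genes above 1, and none was below −1, where 0.522% of all genes were. The FPKM ratio of 2% HS to 10% FBS was 2.2 for Dmd, 2.05 for Sgca, 1.55 for Sgcd, 1.36 for Dag1, 1.29 for Sntb1 and 1.26 for Sgcb, against 1.03 for Dtna and 1.02 for Utrn. In 0.2% FBS against 10% FBS no tested member passed, with 1.79% of all genes above 1 and 0.69% below −1. There Sgca had a ratio of 1.92, Sntb1 1.9, Dmd 1.85 and Sgcd 1.30, and Dtna (1.20), Dag1 (1.11), Sgcb (1.11) and Utrn (1.10) were closer to growing cells. The median change from 10% FBS was 0.33 in 2% HS, where it was −0.08 over all genes, and 0.25 in 0.2% FBS, where it was −0.09 over all genes. Each of these comparisons is 1 library against the same 10% FBS library, so none has a replicate check.

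Against growing cells, the libraries of 0.2% FBS + exosome had no tested member past the threshold, with 0.0932% of all genes below −1 and 0.513% above 1. The changes from 10% FBS ran from −0.36 for Utrn to 0.26 for Sgca, with a median of −0.09, and 0.04 over all genes. Utrn, Sgcb, Sgcd and Dtna were lower than in growing cells and Dag1, Sgca and Sntb1 higher, on the mean of both replicates. Without replicate 2 the median was −0.01, with Utrn at −0.24, Sgcd at −0.01 and Dag1 at 0.25. Without replicate 1 it was −0.08, with Utrn at −0.48, Sgcd at −0.20 and Dag1 at 0.03.

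The complex holds paralogs that can take each other's place. The plain ratio of their FPKM values within a library does not depend on how the library is scaled. Its change on the log2(FPKM + 1) scale does, through the pseudocount. Sgce, epsilon-sarcoglycan, is a widely expressed relative of Sgca. It was at 24.4 FPKM in 10% FBS, 22.9 in 2% HS, 22.1 in 2% HS + exosome, 20.4 in 0.2% FBS and 37.5 and 37.4 in 0.2% FBS + exosome, where it was highest. This was a rise of 0.85 in 0.2% FBS (limma SE 0.16, adjusted p = 0.0182). The ratio of Sgca to Sgce FPKM was 2.13 in 2% HS, 2.43 in 2% HS + exosome and 2.23 in 0.2% FBS, 0.974 in 10% FBS, and 0.762 and 0.767 in 0.2% FBS + exosome. The alpha form led in 3 libraries, the epsilon form led in both exosome libraries of 0.2% FBS, and growing cells held about equal levels per length. On the log2(FPKM + 1) scale this ratio moved by −1.50 in replicate 1 and −1.49 in replicate 2, further than Sgca alone, as both genes of the pair moved, in opposite directions.

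Dtnb, beta-dystrobrevin, was at 3.23 FPKM in 10% FBS, between 2.26 and 2.58 in the 3 other libraries of differentiating cells, and at 3.96 and 4.05 in 0.2% FBS + exosome. The ratio of Dtna to Dtnb was 5.74 in 10% FBS, 8.46 in 2% HS, 8.12 in 2% HS + exosome, 8.59 in 0.2% FBS and 4.08 and 4.27 in 0.2% FBS + exosome, although neither gene alone passed limma in 0.2% FBS (adjusted p of 0.135 for Dtna and 0.0993 for Dtnb). These ratios are a description with no test.

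**Figure D3:**
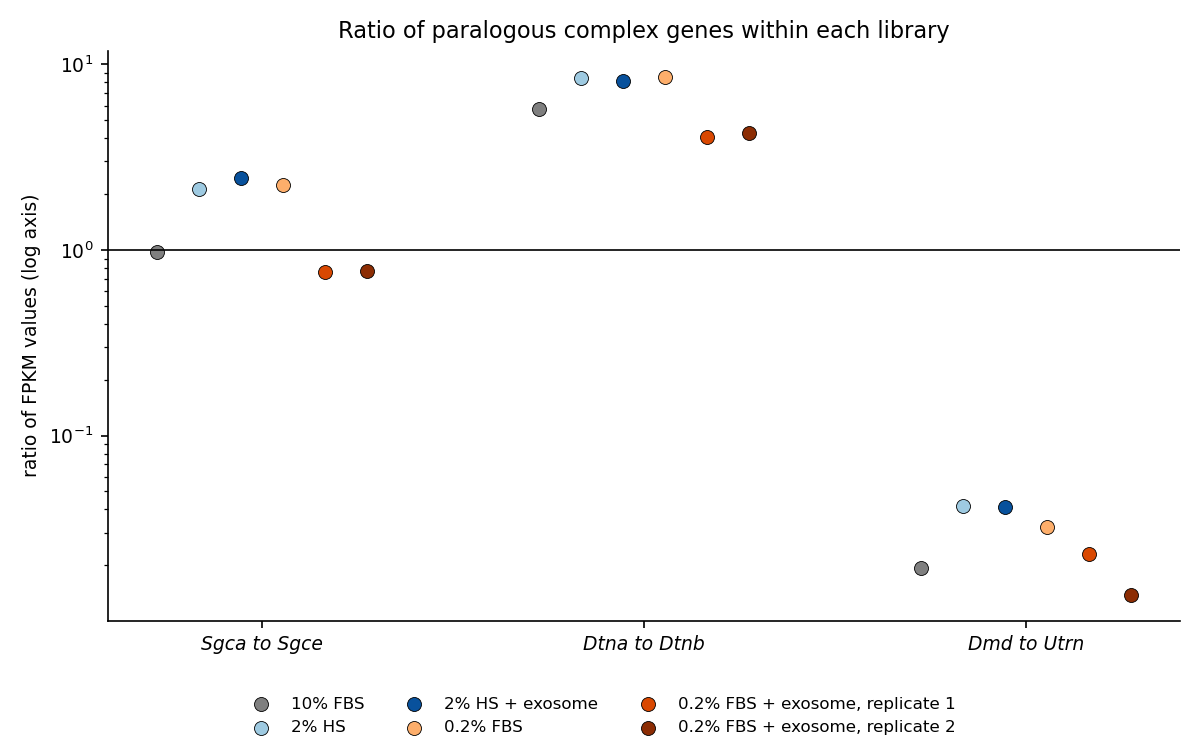
Ratio of FPKM values of paralogous genes of the complex within each library (log axis, horizontal line at equal levels), 1 point per library with no error bar. Sgca to Sgce lies between 2.13 and 2.43 in 3 differentiating libraries and at 0.762 and 0.767 in 0.2% FBS + exosome, and Dtna to Dtnb lies between 8.12 and 8.59 in the same 3 libraries and at 4.08 and 4.27 in 0.2% FBS + exosome.

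Of 9 other genes of the complex that are reported here, 5 were tested. Of these 1, Cav3, lay below −1 in each exosome library of 0.2% FBS, while none lay above 1. Of all genes 1.61% lay below −1 in each of these libraries and 0.895% above 1. Cav3, caveolin of muscle membranes, was at 23.5 FPKM in 10% FBS, 57.6 in 2% HS, 73.4 in 2% HS + exosome, 69.7 in 0.2% FBS and 25.8 and 15 in 0.2% FBS + exosome, a change of −1.77 in 0.2% FBS (limma SE 0.28, adjusted p = 0.0105). By limma 1 of the 5 was lower, Cav3, and 2 were higher, Sgce and Sntb2, where 4.32% of all genes were lower and 8.2% higher. The latter, beta-2-syntrophin, falls outside the rule for named genes and was chosen after its values were seen (a change of 0.70, adjusted p = 0.038, and 0.0529 after scaling). The median of the 5 was 0.48, with 2 lower and 3 higher in each exosome library, also after scaling, beside 27.5% lower and 55.2% higher of all genes. Sgcz was at 0 in all libraries, and the syntrophins Sntg1 and Sntg2 did not exceed 0.0121 FPKM.

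A further list held genes that decorate dystroglycan with its laminin-binding sugars. Of 17 enzymes and helpers, 15 were tested, none passed the threshold in any of the 5 comparisons, and limma called none in 0.2% FBS (3 had an unadjusted p under 0.05), where 4.32% of all genes were called lower, 8.2% higher, and 31.5% had such a p. Their median change was 0.11, near that of all genes, and −0.01 after scaling. In each exosome library of 0.2% FBS 4 were lower and 9 higher (26.7% and 60%), beside 27.5% and 55.2% of all genes. After scaling, 6 were lower and 5 higher, beside 39.5% and 43.2% of all genes. The lowest was Pomgnt1, which extends the mannose chain, at −0.21 (adjusted p = 0.432), and the highest Dpm2, a subunit of the enzyme that makes the mannose donor, at 0.52 (adjusted p = 0.0917). Of the matrix ligands, 9 of 10 were tested, none was lower in each exosome library of 0.2% FBS (2 after scaling), and 6 were higher in each, also after scaling. Of all genes 55.2% were higher in each, and 43.2% after scaling. Agrn, agrin, which binds dystroglycan at the nerve contact, rose by 0.90 (limma SE 0.17, adjusted p = 0.0183), from 7.14 FPKM in 0.2% FBS to 13.1 and 15.3 with exosomes. Lama2, the laminin chain of the muscle basement membrane, was the only other ligand called (0.58, adjusted p = 0.0487) and lost the call after scaling (0.0755). It was named after its values were seen. Thus 2 of 9 ligands were higher by limma, beside 8.2% of all genes. The lowest of the list was Bgn, biglycan, at −0.06 (adjusted p = 0.899).

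Integrin α7β1 is the other laminin receptor of muscle. Of 6 genes of it and its partners, 1 was lower and 1 higher by limma in 0.2% FBS, beside 4.32% and 8.2% of all genes. Itgb1bp2, melusin, a muscle protein that binds the β1 chain, was at 61.7 FPKM in 10% FBS, 129 in 2% HS, 130 in 2% HS + exosome, 145 in 0.2% FBS and 49.6 and 30.8 in 0.2% FBS + exosome, a fall of 1.86 (SE 0.27, limma adjusted p = 0.00894). Tln2, talin 2, which couples integrins to actin, rose by 0.79 (SE 0.18, limma adjusted p = 0.0303). Of 15 cytoskeletal linkers 11 were tested, with a median of 0.14, and limma called 1, against the same shares of all genes: Sync, an intermediate filament protein that binds dystrobrevin, was lower (−0.84, adjusted p = 0.02), named after its values were seen. The extremes of that list were Des, desmin, at −0.92 (adjusted p = 0.120) and Actg1, cytoplasmic gamma-actin, at 0.76 (adjusted p = 0.290).

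Differentiation transcripts were lower in the same libraries, with a larger median change than the members. Of 10 genes of muscle differentiation, all were lower in each exosome library of 0.2% FBS, 8 lay below −1 on the mean, 6 in each library, and limma called 5 as lower. Of all genes 27.5% were lower in each library, 2.25% lay below −1 on the mean, 1.61% did in each library, and limma called 4.32% as lower. Their median change was −1.42 in 0.2% FBS and 0.01 in 2% HS. Those below −1 in each library were Tmem8c (−1.37), Myh3 (−1.58), Myh1 (−1.69), Acta1 (−1.46), Actn2 (−2.10) and Tnnt3 (−1.81). They encode the fusion protein myomaker and proteins of the contractile apparatus. Myod1 changed least, at −0.23 (limma adjusted p = 0.472). Of 6 markers of the muscle lineage, both exosome libraries of 0.2% FBS had 4 below the control and 2 above it, and limma called 1, Myf5, a myogenic factor of myoblasts, as higher (0.96, adjusted p = 0.0196), as it did 8.2% of all genes. Myf5 was at 12.2 FPKM in 10% FBS, 5.39 in 0.2% FBS and 10.1 and 12.9 in 0.2% FBS + exosome, and was named after its values were seen. The summed FPKM of the 10 was 4791 in 10% FBS, 10212 in 2% HS, 9887 in 2% HS + exosome, 11225 in 0.2% FBS and 4971 and 3551 in 0.2% FBS + exosome. The part of differentiation in the values of Sgca and its neighbours was not tested.

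**Figure D4:**
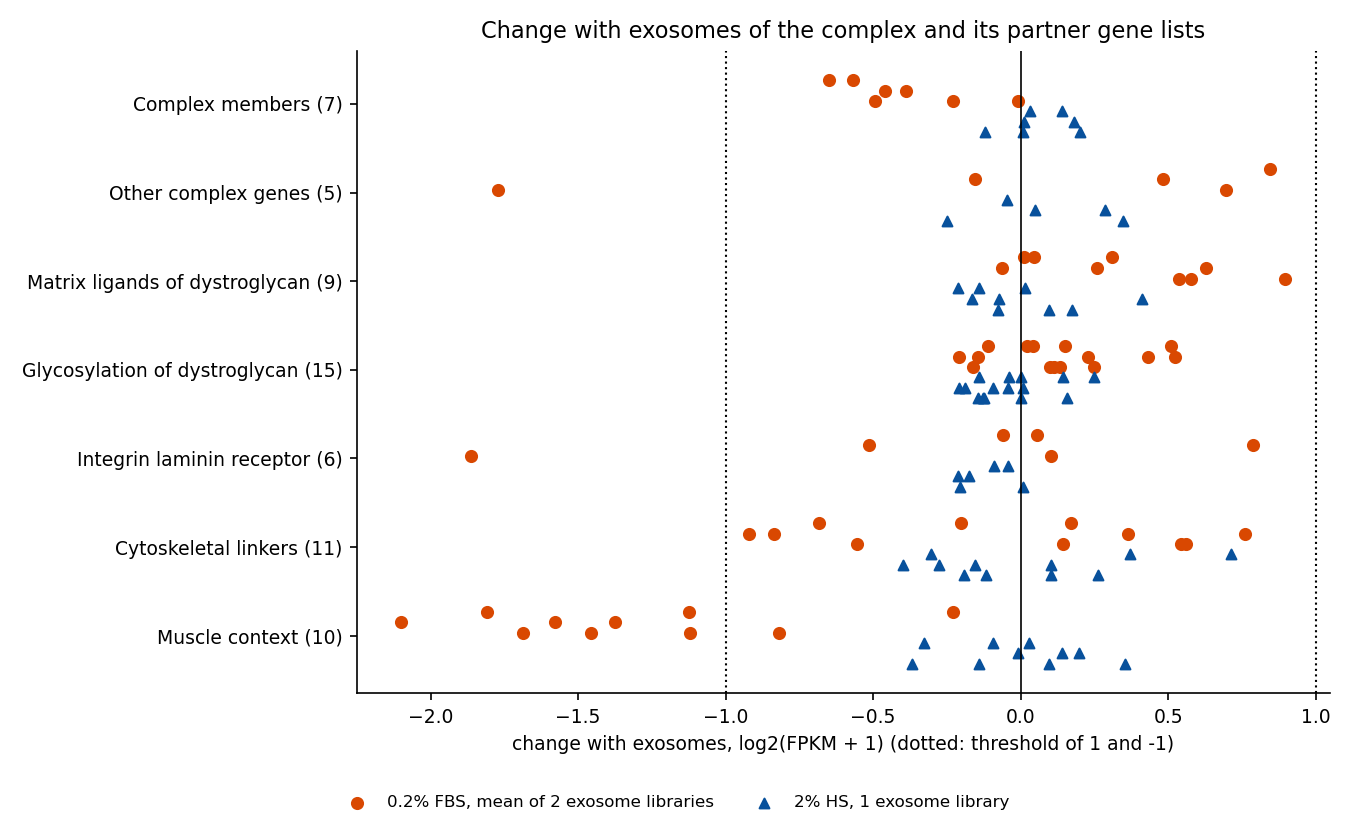
Change with exosomes as a difference of log2(FPKM + 1) for each tested gene of the members and of 6 gene lists (number of genes in brackets), as the mean of 2 libraries in 0.2% FBS and as 1 library in 2% HS, with dotted lines at the threshold of 1 and −1. The members lie between −0.65 and −0.01 in 0.2% FBS, and the muscle differentiation genes reach −2.10.

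The genes most like a member across the 6 libraries were found by the root mean square difference of log2(FPKM + 1), each gene centred on its own mean, among genes whose mean reached 5 FPKM. For Sgca, whose own values had a root mean square of 0.44 around their mean, they were Avpi1 (0.09), Hist1h2bc (0.10) and Cacng1 (0.10), the last a calcium channel subunit of skeletal muscle. For Utrn (0.21) they were Aqr (0.02), Uso1 (0.04) and Chn1 (0.05), and for Sgcd (0.35) Ccdc47 (0.05), Dusp14 (0.06) and Scrn3 (0.07). For Sgcb (0.23) they were Atg4a (0.04), Rpp38 (0.05) and Atad1 (0.05), and for Dag1 (0.16) Rnf139, Slc35e1 and Wfs1 (0.05 each). For Dtna (0.13) they were Pwp1 (0.03), Eef1e1 (0.04) and Nsun4 (0.04), and for Sntb1 (0.21) Rhox5 (0.05), Ccnd3 (0.06) and Tspan9 (0.06). No member was among the 3 nearest genes given for another. Sntb1 and Dmd could not appear there, as their means lay below 5 FPKM, and no nearest genes are given for Dmd.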

How the data were processed

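C2C12 cells of 5 conditions gave 6 libraries, made with a stranded mRNA kit and 75-base reads. Per the submitters' processing notes, reads were trimmed with cutadapt 1.9.1 and mapped to mm10 with TopHat2 2.1.0. The authors computed gene-level FPKM with Cufflinks and deposited 1 table, which divides by transcript length and depth and holds no counts. Depth was therefore estimated, from 2442 genes with a single transcript and fragments taken as 200 bases, and no counting interval is given.

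Values were compared as log2(FPKM + 1), a fold change on that scale, over 10731 genes whose mean reached 1 FPKM. The fold threshold has the size used in the study. limma 3.58.1 in R 4.3.3, with a mean-variance trend and two-sided Benjamini-Hochberg adjustment over all these genes, fitted 1 mean per condition (1 residual degree of freedom, from the 2 libraries of 0.2% FBS + exosome, whose spread is assumed for the others). A second fit, of the 5 differentiating libraries, took medium as a term beside 1 exosome effect (2 residual degrees of freedom). Of these degrees, 1 is the difference of that effect between media, the only one left when a replicate is left out. Both fits were tested on simulated data. Alternatives were another pseudocount, values raised to 1, scaling to the 75th percentile, no filter, no trend and each replicate left out. Named outside the members are genes past the threshold in both exosome libraries of 0.2% FBS, the extremes of each list and paralogs used in a ratio. The members and lists were chosen with earlier results of these data known. Positions come from GENCODE vM21 (mm10) and promoters from RefSeq. Some listed genes and their ratios are not reported here. RT-qPCR and staining were not analysed here.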

Additional observations from a re-analysis of the deposited data

Results flagged for a closer look

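In each of these genes both exosome libraries of 0.2% FBS moved one way and the 2% HS + exosome library the other, each against its own medium. Of the 7 members tested, 6 met this (85.7%), as did 45.7% of all genes tested, and Dag1 did not. The difference between both exosome effects, 0.2% FBS less 2% HS, was −0.50 for Utrn, −0.79 for Sgca, −0.43 for Sgcb, −0.64 for Sgcd, −0.60 for Sntb1 and −0.40 for Dtna, with limma adjusted p-values from 0.149 (Sgca) to 0.397 (Dtna), so none passed. For Utrn, Dtna and Sntb1 the change in 2% HS was itself only 0.01, 0.01 and 0.03.

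Among the other genes the difference was −2.30 for Actn2, the alpha-actinin of the muscle Z-disc, which alone passed limma (adjusted p = 0.0185). It was −2.12 for Cav3 (adjusted p = 0.0575), −1.87 for Itgb1bp2 (0.0732) and −1.84 for Tnnt3 (0.173). It was higher in 0.2% FBS for Sgce at 0.89 (adjusted p = 0.105), Tln2 at 0.96 (0.124), Dpm2 at 0.71 (0.218) and Actg1 at 0.92 (0.501). For Tmem8c, listed under its older symbol, it was −1.52 (adjusted p = 0.205). The genes named after their values were seen moved in opposite directions too, and none passed. The difference was 1.48 for Myf5 (limma adjusted p = 0.0545), 0.95 for Sntb2 (0.115), −0.94 for Sync (0.102) and 0.65 for Lama2 (0.196). Myog, at −1.17 (limma adjusted p = 0.238), did so as well.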

How the results depend on the processing

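The counts of tested members past the threshold were the same under every alternative run in all 5 comparisons. Leaving out either replicate was run only for the comparisons that use 0.2% FBS + exosome. The limma count in 0.2% FBS went from 1 to 0 with values below 1 FPKM raised to 1, with no filter and without a trend, as Sgca lost its call. The alternatives without a filter and with raised values called 0 genes of the whole table, and the calls of all other genes named are lost there too. Without a trend Sntb2 (adjusted p = 0.0592) and Lama2 (0.0721) lost theirs as well, while Des (0.0282), Actg1 (0.046), Myh3 (0.0331) and Acta1 (0.0235) gained one. The counts of the limma difference between media and of the common effect were 0 throughout.

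For the paralog ratios the change in 0.2% FBS is given first for a pseudocount of 0.1 and then for values below 1 FPKM raised to 1. It was −1.54 and −1.55 for Sgca to Sgce and −1.02 and −1.04 for Dtna to Dtnb. For Dmd to Utrn it was −0.58 and 0.52. Dmd lay below 1 FPKM in every library, so raising values to 1 made it constant. The second value is then only the Utrn change with its sign turned, and says nothing of the direction of the ratio. Of single members, Dag1 changed by 0.10 without replicate 2 in place of −0.01, and Dmd by 0.01 in 2% HS after scaling in place of −0.01. Against 10% FBS, Dmd in 0.2% FBS + exosome stood at 0.00 without replicate 2 in place of −0.11. Depth limits Dmd and Sntb1, at an estimated 98 to 488 reads per library for Dmd if all come from its transcript of 14910 bases, 28 to 141 if from that of 4438 bases, and 239 to 478 for Sntb1. No paired analysis was possible within a medium because each pair of groups shares at most 1 title number, and the 10% FBS library has none. A fit of a common effect with the title number as a replicate block in place of medium was chosen after seeing the data. It leaves 1 pair per medium, and limma called 0 members and 0 genes (296 genes and 0 members at an unadjusted p under 0.05). Title number 3 marks replicate 2 alone, so its block absorbs that library. The estimates are those of the fit without replicate 2 (Sgca −0.26 in both), so this is no further check.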
